A study of Medicago truncatula with 14 samples.

Results

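NOOT1 (LOC11417633, on chromosome 7) and NOOT2 (LOC25483282, on chromosome 1) are the nodule identity genes of the legume Medicago truncatula, and the peaks of 2 transcriptional regulators, LSH1 and NIN, around them are described here. The members are all peaks of the deposited lists that lie within 50 kb of either gene. They number 163 of the 213590 peaks in the 7 lists, 93 at NOOT1 and 70 at NOOT2. The choice rests on position and not on any measured value, and it was made with earlier results of these data known. The limit of 50 kb is arbitrary. At NOOT1 the farthest peak taken in lay 49649 bp from the gene and the nearest one left out 50088 bp, while at NOOT2 these were 49162 and 50186 bp.

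The lists come from chromatin immunoprecipitation sequencing, in which DNA bound by a tagged protein is pulled down and mapped. Hairy roots of ecotype jemalong, cultivar Jester, were transiently transformed and kept for 3 weeks without symbiosis on medium with 0.5 mM ammonium nitrate. They carried GFP-LSH1 or GFP-NIN under the LjUBI promoter, a ubiquitin promoter of Lotus japonicus that is active in most cells. The peaks are thus those of overexpressed fusion proteins in whole roots kept without symbiosis. Whether any nodules formed on these roots is not recorded here. There are 4 LSH1 and 3 NIN lists, and each sets 1 immunoprecipitation library against its own control, which makes 14 libraries. The labels give the controls the genotype of the immunoprecipitations, and the protocol also names NLS-GFP roots as control, so the material of the controls is not settled here. Nothing in the labels says that replicates were separate cultures, so the spread behind every p-value is that of these lists and could be a technical one.

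NOOT1 and NOOT2 encode co-regulators with a BTB/POZ domain and ankyrin repeats, related to the BLADE-ON-PETIOLE proteins of Arabidopsis. They do not bind DNA by themselves but act with transcription factors. In M. truncatula they keep a nodule a nodule: when NOOT1 is lost, roots can grow out of nodules, and loss of both genes makes this more severe. NIN is the RWP-RK transcription factor that starts nodule formation, and LSH1 is an ALOG-domain protein that is needed for nodule organ identity. Whether either protein has peaks at the NOOT genes is the question of the comparisons below.

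A list holds only the position of each peak and a running number. The place of a peak is given here as 100 times its running number over the length of its list, so that 0% is the beginning; which measure sets the order is not stated. Lists differ in length, from 18750 to 25127 peaks for LSH1 and with 14021, 28825 and 84178 peaks for NIN replicates 1 to 3. Peak numbers at a gene are therefore set against other windows of the same chromosome in the same list. Reads per library were not used here, so the depth behind a list is unknown.

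NOOT1 lay in a neighbourhood with many LSH1 peaks. Within 50 kb of the gene the LSH1 lists of replicates 1 to 4 held 17, 12, 19 and 18 peaks. The NIN lists of replicates 1 to 3 held 5, 5 and 17. Every LSH1 list thus had 12 peaks or more, and among the NIN lists only the long list of replicate 3 reached such a number.

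**Figure D1:**
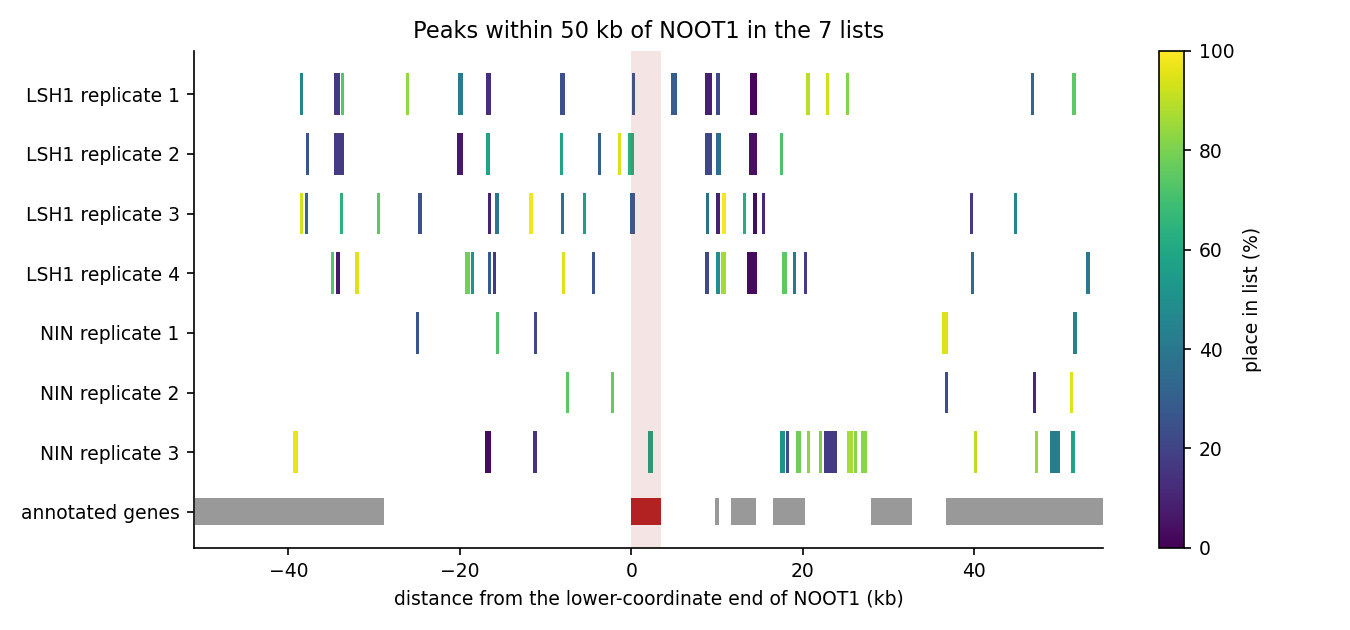
Peaks within 50 kb of NOOT1 in the 4 LSH1 and 3 NIN lists, by distance in kb from the end of the gene with the lower coordinate. Each bar is a peak, coloured by its place in the list in percent, and peaks under 350 bp are drawn 350 bp wide; grey bars are other annotated genes and red is NOOT1. The 4 LSH1 rows hold 12 to 19 peaks each and share positions on both sides of the gene, while NIN replicates 1 and 2 hold 5 each.

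Peaks from different lists of 1 protein that shared 1 bp or more were joined into regions, and a region with peaks of at least 2 lists is called reproducible. Peaks can be joined through another peak, so a region need not hold a base found in all its lists. The 66 LSH1 peaks at NOOT1 formed 36 regions. Of these, 6 were in all 4 lists, 1 was in 3, 8 were in 2 and 21 were in a single list. The 15 reproducible regions were 264 to 1474 bp wide.

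In the gene itself, 1 reproducible LSH1 region spanned the end with the lower coordinate (chromosome 7, 42203427 to 42204208). Its peak stood at 28.5% of the list in LSH1 replicate 1, at 63.4% in replicate 2 and at 29.4% in replicate 3. The peaks of replicates 2 and 3 covered that end, and the peak of replicate 1 lay wholly inside the gene. LSH1 replicate 4 had no peak in the gene, and its nearest was 4335 bp away at 25.6% of the list. Of the 3938 coding genes of chromosome 7, 12% were overlapped by an LSH1 region found in at least 3 lists. The strand is not in the gene table, and which end of the gene is the promoter was therefore not determined.

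NIN had no reproducible region in NOOT1, as was so for most genes of the chromosome, of which 11.1% were overlapped by one. A single NIN peak lay in the gene, in replicate 3, at 59.0% of that list. NIN replicate 2 had a peak 2076 bp outside the gene at 76.5% of its list. Neither was met by a peak of another NIN list.

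The LSH1 regions common to all 4 lists stood outside the gene. The earliest in the lists was at chromosome 7, 42217345 to 42218513, 10075 bp from NOOT1. Its peak stood at 1.66%, 4.04%, 3.06% and 3.10% of the lists of replicates 1 to 4, so that it was among the first peaks of every list. It overlapped another coding gene, LOC11422204, for which the gene table gives no product. Among the 560 other 100 kb windows of chromosome 7, 8.93% held a region of all 4 LSH1 lists with an equal or earlier mean place.

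Another pair of regions in all 4 lists lay between NOOT1 and that gene. The first (42212397 to 42213206) was 5127 bp from NOOT1, and its places were 8.66%, 21.5%, 36.4% and 22.5% in replicates 1 to 4. The second (42213648 to 42214221) was 6378 bp away, with 22.4%, 35.8%, 9.35% and 49.0%. The order of the pair changed between lists: the first came earlier in replicates 1, 2 and 4 and the second in replicate 3. The second overlapped the short coding gene LOC112416770, which is 492 bp long, and the first lay 394 bp from it.

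On the side with lower coordinates the region nearest to NOOT1 in all 4 lists (42195525 to 42196054) was 7757 bp away. Its places were 24.3%, 59.2%, 36.4% and 94.8%, so it was near the end of the list in replicate 4. The region at 42186885 to 42187451, 16360 bp from the gene, stood at 13.5%, 58.5%, 9.20% and 28.8%. No annotated gene lies between NOOT1 and LOC11415038, whose nearer end is 28873 bp from it, and 2 of the regions in all 4 lists and 2 of those in 2 lists fell in this stretch. The last region in all 4 lists (42168792 to 42170265) was inside LOC11415038, with 16.2%, 17.4%, 64.2% and 6.41%. No base of it was shared by all 4 lists: the peak of replicate 3 met none of replicate 4, and the wide peak of replicate 2 joined them.

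Position alone did not tie most of these regions to NOOT1. Of the 15 reproducible LSH1 regions, 2 had NOOT1 as the nearest annotated gene and 13 had another gene, and 9 overlapped some gene. LOC11415038 was overlapped by 3, LOC11419140 by 2, and NOOT1, LOC112416770, LOC11422204 and LOC11414816 by 1 each. Only LOC112416397 of the 6 coding neighbours within 50 kb was overlapped by none. Expression was not measured in these lists.

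**Figure D2:**
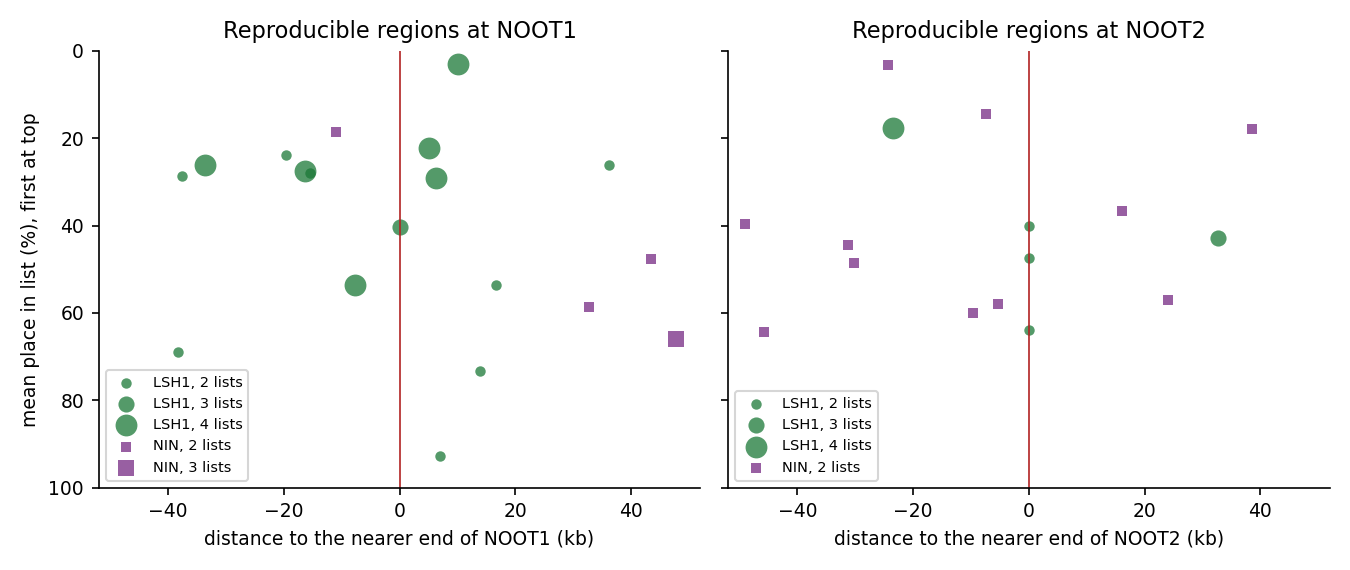
Reproducible regions, in at least 2 lists of a protein, by distance in kb to the nearer end of NOOT1 (left) or NOOT2 (right) and by mean place in the lists in percent, with the beginning of the lists at the top. Circles are LSH1, squares are NIN, and larger symbols are regions in more lists. At NOOT1 the 6 large circles lie outside the gene, the earliest with a mean place of 2.97%, while at NOOT2 the 3 circles at distance 0 are in 2 lists each.

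The number of LSH1 peaks at NOOT1 was high for chromosome 7. In a 100 kb window centred on the gene the LSH1 lists of replicates 1 to 4 held 17, 12, 19 and 17 peaks, against means of 5.58, 4.84, 4.12 and 4.62 in the other 560 windows. The shares of these windows with as many peaks or more were 3.57%, 8.75%, 0.179% and 2.50%. A single window, 0.179% of the 560, reached the number at NOOT1 in every LSH1 list. For reproducible LSH1 regions the window held 15, against a mean of 3.70 ± 3.93 (SD over windows), and 1.79% of windows held as many. The window has 7 coding genes, and the other windows also have 7 on average, with an SD of 3.57.

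NIN peaks at NOOT1 were not unusual in number. The window held 5, 5 and 17 peaks in NIN replicates 1 to 3, where other windows held 3.05, 6.89 and 20.5 on average. Windows with at least these numbers made up 23.2%, 58.6% and 60%, and 15.2% had at least these numbers in all 3 lists together. The 4 reproducible NIN regions there were matched or exceeded by 46.8% of windows. Of the 4, a region at 42192295 to 42192789 lay 11022 bp from NOOT1 with a peak in replicates 1 and 3. The other 3 overlapped LOC11414816, at 32818 bp or more, and 1 of them (42255023 to 42255770) was in all 3 lists with a mean place of 65.9%. In that region the peaks of replicates 1 and 2 did not overlap and were joined by the peak of replicate 3. Without NIN replicate 1 or 2 the number of reproducible NIN regions was 2, and without replicate 3 it was 1.

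**Figure D3:**
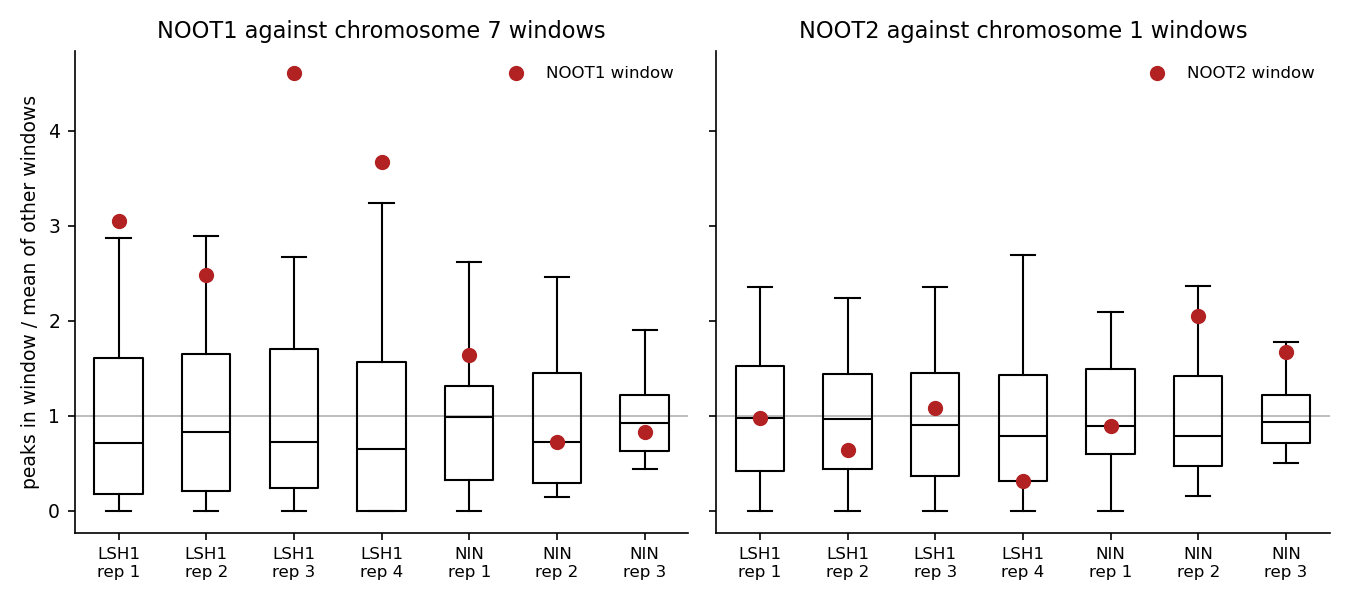
Peaks in the 100 kb window of NOOT1 (left) and NOOT2 (right) over the mean of the other windows of the chromosome, per list. Boxes are the quartiles and median of the other windows (560 on chromosome 7, 564 on chromosome 1), whiskers their 5th and 95th percentiles, and red dots the NOOT window. The 4 LSH1 dots lie between 2.48 and 4.61 at NOOT1 and between 0.317 and 1.09 at NOOT2.

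Peaks in the window over the mean of the other windows, called the relative number here, allow for the different length of the lists. This evens out the means of the lists but not their spread over windows. On chromosome 7 the SD over windows was 5.22 at a mean of 5.58 in LSH1 replicate 1. In NIN replicate 3 it was 9.53 at a mean of 20.5. Equal relative numbers are therefore not equally rare in every list, and the tests on them do not allow for this. At NOOT1 it was 3.05, 2.48, 4.61 and 3.68 in the LSH1 lists, a mean of 3.46 ± 0.915 (SD, n = 4). In the NIN lists it was 1.64, 0.725 and 0.831, a mean of 1.07 ± 0.501 (SD, n = 3). The lowest LSH1 list was above the highest NIN list. The difference of 2.39 gave p = 0.0286 in a two-sided exact permutation test over 35 arrangements, the smallest that 4 against 3 lists can give. After Benjamini-Hochberg adjustment over the 5 tests made it was 0.0714 and did not pass 0.05. Counted as bases covered by peaks instead of peaks, the relative values were 3.75 and 1.09 on average, with an adjusted exact permutation p of 0.0476. The unadjusted p was again 0.0286. Its adjusted value was lower only because the test at NOOT2 also reached 0.0286 with covered bases.

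NOOT2 had fewer LSH1 peaks than NOOT1, and more NIN peaks in 2 of the 3 NIN lists. Within 50 kb the LSH1 lists of replicates 1 to 4 held 7, 4, 6 and 2 peaks. The NIN lists of replicates 1 to 3 held 4, 14 and 33. The LSH1 numbers were below those at NOOT1 in each of the 4 lists, and the NIN numbers were above them in replicates 2 and 3 and below them in replicate 1.

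**Figure D4:**
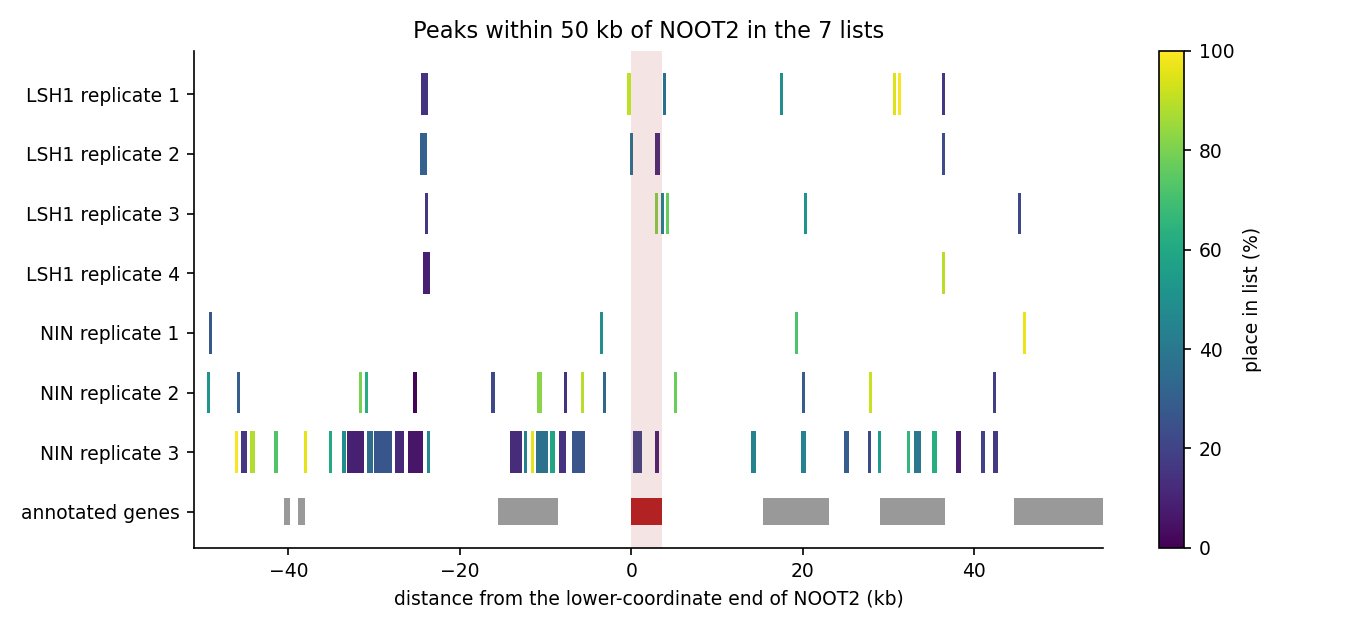
Peaks within 50 kb of NOOT2 in the 7 lists, by distance in kb from the end of the gene with the lower coordinate, drawn as for NOOT1. LSH1 replicates 1 to 3 have peaks at the ends of the gene and all 4 have a peak on the lower side in the region 23508 bp away, while most NIN peaks, 32 of 51, lie on the side with lower coordinates.

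LSH1 had peaks at both ends of NOOT2 in some lists. Of 5 reproducible LSH1 regions, 3 overlapped NOOT2, each in 2 of the 4 lists. The first covered the end with the lower coordinate (chromosome 1, 20472388 to 20473030), with peaks at 89.9% of the list in replicate 1 and 38.1% in replicate 2. The peak of replicate 1 ended at 20472919 and met the gene only at its outermost base. The second lay wholly within the gene near its other end (20475692 to 20476211), at 13.4% in replicate 2 and 81.3% in replicate 3. The third spanned that other end (20476424 to 20476926), at 36.5% in replicate 1 and 43.5% in replicate 3. Only the peak of replicate 3 reached into the gene there, and that of replicate 1 lay 119 bp outside it. LSH1 replicate 4 had no peak in NOOT2 or within 20 kb of it. Without LSH1 replicate 1, 2 or 3 the number of reproducible regions within 50 kb was 3 instead of 5. On chromosome 1, 22.9% of 4506 coding genes were overlapped by an LSH1 region in at least 2 lists.

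A single LSH1 region near NOOT2 was in all 4 lists (20448297 to 20449411), 23508 bp from the gene and nearest to LOC112418555 at 7951 bp. It stood at 14.6%, 30.8%, 16.1% and 8.92% of the lists of replicates 1 to 4. Windows of chromosome 1 with a region of all 4 lists as early as this made up 39.2%. A NIN region of replicates 2 and 3 (20446913 to 20448633) overlapped it, through the peak of replicate 3 alone, since that of replicate 2 ended at 20447883. That NIN region had a mean place of 3.30%, the earliest of the 11 reproducible NIN regions there. On the whole of chromosome 1, 2.97% of 2796 reproducible LSH1 regions overlapped a reproducible NIN region. At NOOT1 none of the 15 LSH1 regions overlapped a reproducible NIN region, as held for most of chromosome 7, where 2.53% of 2091 did.

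NIN regions at NOOT2 stood outside the gene. None of the 11 reproducible ones overlapped it, as held for most genes of chromosome 1, of which 8.74% were overlapped by one. The nearest, at 20466044 to 20467536, lay 5383 bp from the gene. Its peak stood at 89.1% in NIN replicate 2 and at 26.5% in replicate 3. NIN replicate 3 alone had 2 peaks inside NOOT2, and 1 of them (20475735 to 20476121, at 10.9% of the list) overlapped the second LSH1 region in the gene. Closer to NOOT2 than the nearest reproducible region, NIN replicate 1 (20469226 to 20469636, at 49.9%) and replicate 2 (20469638 to 20469941, at 32.5%) had peaks side by side that did not overlap. This pair was picked out after its values were seen.

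The agreement of NIN lists at NOOT2 rested on replicates 2 and 3. Of the 11 reproducible NIN regions, 10 had peaks in these lists and 1 in replicates 1 and 2, and none was in all 3. Without replicate 2 the number was 0, and without replicate 3, the longest list, it was 1.

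LSH1 peaks at NOOT2 were not unusual in number. Its 100 kb window held 7, 4, 6 and 2 LSH1 peaks, where the other 564 windows held 7.20, 6.23, 5.52 and 6.31 on average. As many peaks or more were found in 50.9%, 67.4%, 45.2% and 78.7% of windows for LSH1 replicates 1 to 4, so that replicates 2 and 4 were below the middle. As many in every LSH1 list were found in 38.5%, and as many reproducible LSH1 regions, 5, in 47.9%. The window held 3, 13 and 33 NIN peaks, against means of 3.34, 6.34 and 19.7. As many were found in 59.9%, 10.3% and 6.91% of windows for NIN replicates 1 to 3, and in all 3 lists together in 1.77%. The 10 reproducible NIN regions in the window were matched or exceeded in 4.96% of windows. The window has 5 coding genes, against 7.95 ± 3.31 (SD) in the others.

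The relative number at NOOT2 was 0.973, 0.642, 1.09 and 0.317 in the LSH1 lists, a mean of 0.755 ± 0.348 (SD, n = 4). In the NIN lists it was 0.899, 2.05 and 1.68, a mean of 1.54 ± 0.588 (SD, n = 3). The lists overlapped, since NIN replicate 1 was below 2 of the LSH1 lists. The difference of -0.788 gave p = 0.114 in the same two-sided exact permutation test (adjusted p = 0.156). With covered bases the means were 0.711 for LSH1 and 1.75 for NIN, the lists did not overlap and the adjusted exact p was 0.0476. When only the first 5000 peaks per list were used, the difference was 0.0956, in the other direction.

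Within each LSH1 list the value at NOOT1 was above that at NOOT2. The relative number at NOOT1 exceeded that at NOOT2 by 2.07, 1.84, 3.53 and 3.36 in LSH1 replicates 1 to 4, a mean of 2.70 ± 0.867 (SD, n = 4). All 4 lists went the same way, and the two-sided exact sign-flip p was 0.125, the smallest that 4 lists allow (adjusted p = 0.156). In the NIN lists the difference was 0.742, -1.33 and -0.847, a mean of -0.477 ± 1.08 (SD, n = 3; exact sign-flip p = 0.500, adjusted p = 0.500). With 3 lists this test cannot go below 0.250. The difference between the genes was larger in every LSH1 list than in any NIN list, by 3.18 on average (two-sided exact permutation p = 0.0286, adjusted p = 0.0714). None of the 5 tests passed 0.05 after adjustment, and 2 of them (NOOT1 between the proteins, and this difference) did so before it.

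The bin at NOOT1 had the highest LSH1 mean of the 11 bins around the gene, while every LSH1 mean around NOOT2 was under 1. In 50 kb bins over 550 kb around NOOT1, the bin at the gene held 4.88 times the chromosome's mean of LSH1 peaks, from 3.94 to 5.83 over the 4 lists. The next highest of the 11 bins, centred 150 kb away, held 3.25 times the mean, from 2.07 to 5.38 over the lists, which overlaps the range at the gene. The LSH1 mean was above 1 in 10 of the 11 bins around NOOT1. In some of these it was only just above, as in the bin centred at 100 kb, with 1.04 and lists from 0 to 2.16. Around NOOT2 the LSH1 mean was under 1 in all 11 bins, and 5 of them had no LSH1 peak in any list. The bin at NOOT2 had the highest LSH1 mean of the 11, 0.731, with 0 in 1 list and 1.45 in another. The NIN mean there was above 1 in each of the 11 bins, from 1.20 to 2.75. Single NIN lists fell below 1 in some of them, to 0.599 in the bin at -200 kb and to 0 in that at 100 kb. Around NOOT1 the NIN mean was above 1 in 3 of the 11. How many other bins of these chromosomes reach such values was not counted.

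**Figure D5:**
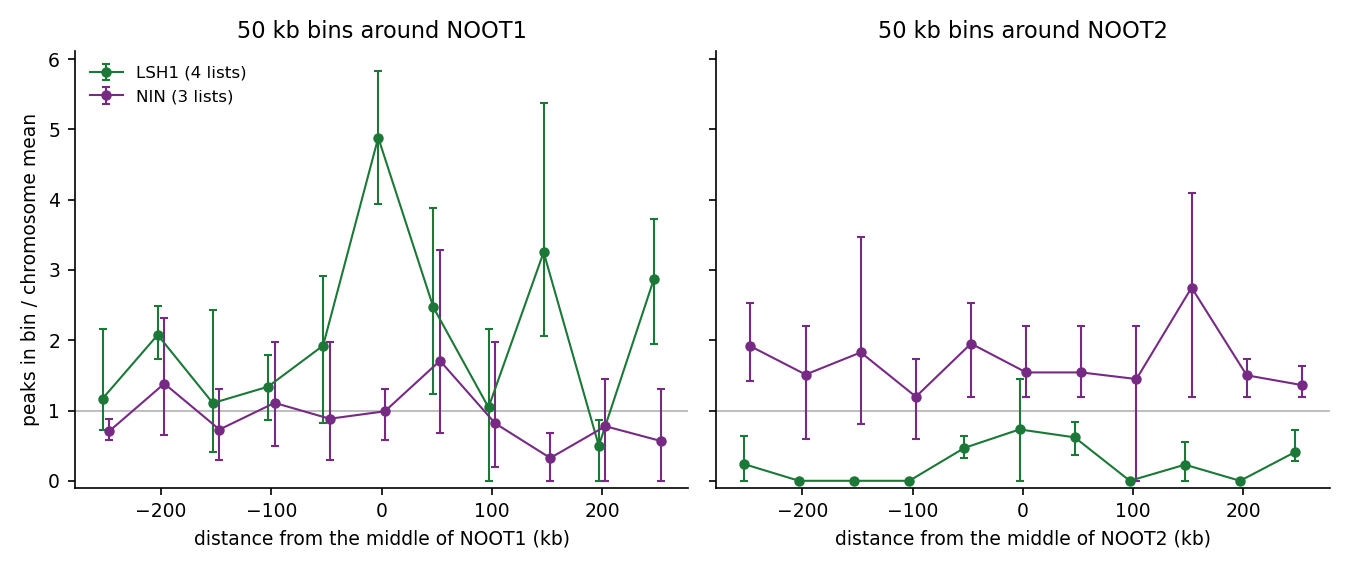
Peaks in 50 kb bins around NOOT1 (left) and NOOT2 (right) over the chromosome's mean, by distance in kb from the middle of the gene. Points are means of the 4 LSH1 (green) or 3 NIN (purple) lists and bars run from the lowest to the highest list. The LSH1 mean reaches 4.88 at NOOT1 and stays under 1 in every bin around NOOT2, where the NIN means lie between 1.20 and 2.75.

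Peaks at the NOOT genes were spread over their lists. At NOOT1 the median place of LSH1 peaks was 32.9%, 33.1%, 36.4% and 40.02% in replicates 1 to 4, while a whole list has its median at its middle. NIN peaks at NOOT1 had median places of 44.6%, 75.0% and 78.0%. At NOOT2 the median places were 49.9%, 26.9%, 47.4% and 49.1% for LSH1 and 60.7%, 42.3% and 37.6% for NIN. In the first 20% of their lists stood 24.2% of the LSH1 and 14.8% of the NIN peaks at NOOT1, and 26.3% and 25.5% of those at NOOT2, where any list as a whole has 20%.

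Of the LSH1 peaks at NOOT1, 64.7%, 83.3%, 63.2% and 66.7% overlapped a peak of another LSH1 list. The shares for all LSH1 peaks of chromosome 7 were 55.5%, 60.7%, 55.7% and 54.7%, lower in each of the 4 lists. Over the 4 lists together the share was 68.2% of 66 LSH1 peaks at NOOT1. It was 68.4% of 19 at NOOT2, where LSH1 peaks were fewer and single lists ran from 50% to 100%. The median LSH1 peak at NOOT1 was 480, 482, 359 and 367.5 bp wide in replicates 1 to 4, against 320, 344, 292 and 311 bp in the whole lists. The part of peak density or width in the recurrence was not tested. LSH1 and NIN peaks met at NOOT1 in 4 of the 15 reproducible LSH1 regions, each time with a peak of a single NIN list, and at NOOT2 in 2 of 5. Over all reproducible LSH1 regions the shares met by a peak of any NIN list were 17.7% on chromosome 7 and 18.9% on chromosome 1.

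Some other genes had nearly the same pattern over the 7 lists. Likeness was the Euclidean distance between log2 values (relative number within 50 kb + 0.5) over the 7 lists, with each list scaled to its mean over coding genes, and it does not speak of shared function. Genes within 200 kb of NOOT1 or NOOT2, or of a gene already named, were left out, since close neighbours share many of the same peaks. Of the rest, the genes most like NOOT1 were LOC11419727 and LOC25484696 on chromosome 1 and LOC112416494 on chromosome 7. They lay at distances of 0.38, 0.45 and 0.39, where the median coding gene lay at 2.72. Those most like NOOT2 were LOC25482405 (chromosome 1), LOC25498325 (chromosome 7) and LOC11426796 (chromosome 5), at 0.38, 0.39 and 0.47 against a median of 2.17. The gene table gives none of the 6 a name or product.

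Of 39 other genes of nodule organ identity and development, 3 were matched by name in the gene table: NSP1, ERN1 and ERN2, all of them transcription factors of nodulation signalling or infection. NSP1 had 2 reproducible LSH1 regions within 2 kb and ERN1 and ERN2 had none, where 30.7% of coding genes have at least 1. None of the 3 had a reproducible NIN region within 2 kb, against 19.1% of coding genes. Within 50 kb ERN1, which is also on chromosome 7, had 9 reproducible LSH1 and 5 NIN regions, NSP1 had 7 and 2, and ERN2 had 4 and 0. NOOT1 had 15 and 4 by the same count, and NOOT2 had 5 and 11.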

How the data were processed

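Peak lists of 4 LSH1 and 3 NIN immunoprecipitations were analysed. Per the submitters' processing notes, the authors used Bowtie2, Picard, MACS2 and ChIPseeker. The genome build is not given in the sources used here, and neither are versions or settings. By their names the lists are of narrow peaks at a q-value cutoff of 0.05, as the authors deposited them. Lists were called per replicate and hold positions and a running number, with no height, fold or q-value. Spearman correlations of peak width with this number lay between -0.522 and -0.324 for NIN replicate 3 and LSH1, and were -0.0520 and -0.0893 for NIN replicates 1 and 2 (across peaks, which are not replicates). Whether place follows peak strength was not tested.

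Gene positions came from a RefSeq table of MtrunA17r5.0-ANR. The midpoints of 24.9% of LSH1 peaks were within 500 bp of a coding gene end, against 16.7 to 17.1% with genes moved by 5 or 20 kb, so both coordinate systems were used together. Distances are differences of coordinates to the nearer gene end, positions are counted from 1, and gene coordinates are not printed. Exons and untranslated regions are not in the table.

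Windows of 100 kb were tiled along the chromosome, leaving out those touching the NOOT window, and peaks were counted by midpoint; peaks within 50 kb of a gene were counted by any overlap. Shares of windows are descriptions, with no test. Tests were exact permutation tests over the lists and exact sign-flip tests within lists, two-sided, adjusted after Benjamini and Hochberg over 5. Scripts used Python 3.11.15, numpy 2.4.6, scipy 1.17.1 and pandas 2.3.3 and were checked on planted peaks. Named genes were NOOT1, NOOT2, their neighbours with regions, the 3 genes most like each outside 200 kb and a list of nodulation genes. Members, lists and tests were chosen with earlier results of these data known. Alternatives were other windows, scalings, thresholds and overlaps, and leaving out each list. Motif counts in promoters were not run.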

Additional observations from a re-analysis of the deposited data

Results flagged for a closer look

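Among 15 measures over the 4 LSH1 lists, 2 had a list that stood apart by Dixon's test, both at NOOT2. The median place of the LSH1 peaks there was 26.9% in replicate 2, against 47.4 to 49.9% in the others; chance marks about 1 in 20 such groups. The number of LSH1 peaks in the first 20% of the list was 2 in replicate 1 and 1 in each of the others. Here the other 3 values are tied, so the test marks any value that differs and says nothing of how far it stands apart. Both rest on 2 to 7 peaks per list. The NIN lists, 3 in number, were not tested.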

How the results depend on the processing

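Over all 15 alternatives the relative number at NOOT1 stayed higher for LSH1 than for NIN, by 1.62 (windows centred on coding genes) to 4.29 (windows of 40 kb), or by 5.20 peaks per 10000 peaks of the list, and leaving out each list gave 2.00 to 2.71. The NOOT1 to NOOT2 difference between the proteins was 2.54 to 5.25, and 2.75 to 3.79 without each list. With 6 lists the exact p cannot go below 0.0667 or 0.100. With covered bases 3 tests passed adjustment (exact permutation, adjusted p = 0.0476): NOOT1 with a difference of 2.66, NOOT2 with -1.04 and the difference between the genes with 3.70. The unadjusted exact permutation p was 0.0286 in all 3 tests, and only that of NOOT2 was lower than with peak counts. Their adjusted p over the other settings that kept all lists went up to 0.143, 0.886 and 0.143. With the first 5000 peaks of each list, LSH1 against NIN at NOOT2 turned to 0.0956 and NOOT1 against NOOT2 in the NIN lists turned to 0.279. Leaving out each list, the first of these was -1.11 to -0.533 and the second -1.09 to -0.0527. The causes were not tested. NOOT1 against NOOT2 in the LSH1 lists was 2.07 to 4.44, and 2.42 to 2.99 without each list.

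Region numbers depended on the rule. For LSH1 at NOOT1, LSH1 at NOOT2, NIN at NOOT1 and NIN at NOOT2 they were 15, 5, 4 and 11. Regions in all lists of a protein were 6, 1, 1 and 0, and those among the first 5000 peaks 4, 1, 0 and 1, both fewer by construction. Within 20 kb they were 11, 3, 1 and 4. Leaving out each list gave 10 to 13, 3 to 5, 1 to 2 and 0 to 10.

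No pairing of the lists by replicate number was seen. Deviations of same-numbered LSH1 and NIN lists over 4256 windows correlated at 0.0409, -0.0436 and -0.0508. Not every list correlated best with its own number, and LSH1 replicate 2 with NIN replicate 3 gave 0.0865. Correlations this small cannot show whether same-numbered lists were prepared together. With the replicate block over 3 pairs the differences were 2.32 at NOOT1, -0.642 at NOOT2 and 2.96 between the genes (exact sign-flip p = 0.250, 0.500 and 0.250; the smallest possible is 0.250). Depth per library is unknown and limits what an absent peak can show.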
